A study of Homo sapiens with 4 samples.

Results

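The MAX network was described in 2 human multiple myeloma cell lines, H929 and KMS28BM, through 10 genes taken by symbol: MYC, MYCL, MYCN, MAX, MXD1, MXD3, MXD4, MXI1, MNT and MGA. All 10 were found in both tables, among 60612 genes in each. Multiple myeloma is a cancer of plasma cells, and both lines are established cultures, each 1 line, for which the labels name no engineered allele and no added agent. The 4 groups were H929 labelled after sorting, H929 labelled before sorting, KMS28BM labelled after sorting and KMS28BM labelled before sorting. The sorting was done on a microfluidic chip, and each group gave 1 library, which leaves sorting differences within H929 or KMS28BM without replicates. The series title seems to call the A libraries unsorted, whereas the labels of the samples place them after sorting. The samples' own labels were kept, and every direction between sorting labels would turn round under the title's reading.

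MYC, MYCL and MYCN are transcription factors that bind DNA as dimers with MAX, mostly at E-boxes with the sequence CACGTG, and raise transcription of genes for growth and ribosome production. MXD1, MXI1, MXD3, MXD4 and MNT compete for MAX, bind the same sites and bring in the SIN3 and histone deacetylase corepressors. MGA also pairs with MAX and is the scaffold of a variant Polycomb complex. Raised MYC activity is common in myeloma, where rearrangements near MYC and high IRF4 are known sources of it.

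The promoters of network genes were searched for the E-box that the network itself binds. Promoter windows of 300 bases, from 250 bases before to 50 bases after an annotated start (RefSeq, GRCh38.p14), were at hand for 9 of the 10 genes, all but MYC, in 14 windows. CACGTG was searched on both strands and occurred in 2 of the 14 windows, those of MNT and MXD4, against 7.26% of all 35116 promoter windows. The related E-box CACATG, read as CATGTG on the other strand, occurred in 1 of the 14 windows, that of MYCL, against 11.1% of all windows. The 4 windows below are those of the 2 genes with CACGTG and of the 2 genes whose transcripts differed most between the lines, all read 5′ to 3′ on the gene's own strand, with either E-box in capitals.
MNT, chr17:2401011-2401310, minus strand: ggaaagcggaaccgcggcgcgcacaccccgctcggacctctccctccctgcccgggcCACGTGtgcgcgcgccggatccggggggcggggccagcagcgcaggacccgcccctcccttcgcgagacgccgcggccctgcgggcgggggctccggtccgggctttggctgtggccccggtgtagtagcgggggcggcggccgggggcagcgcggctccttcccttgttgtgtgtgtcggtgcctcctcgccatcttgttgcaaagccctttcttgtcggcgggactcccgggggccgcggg
MXD4, chr4:2262060-2262359, minus strand: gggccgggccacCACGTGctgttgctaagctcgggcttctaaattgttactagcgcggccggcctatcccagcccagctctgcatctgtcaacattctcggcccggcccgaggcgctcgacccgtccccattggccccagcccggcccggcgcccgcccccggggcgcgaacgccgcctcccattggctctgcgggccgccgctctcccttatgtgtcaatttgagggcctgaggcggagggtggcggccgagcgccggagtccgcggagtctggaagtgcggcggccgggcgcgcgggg
MYCL, chr1:39901868-39902167, minus strand: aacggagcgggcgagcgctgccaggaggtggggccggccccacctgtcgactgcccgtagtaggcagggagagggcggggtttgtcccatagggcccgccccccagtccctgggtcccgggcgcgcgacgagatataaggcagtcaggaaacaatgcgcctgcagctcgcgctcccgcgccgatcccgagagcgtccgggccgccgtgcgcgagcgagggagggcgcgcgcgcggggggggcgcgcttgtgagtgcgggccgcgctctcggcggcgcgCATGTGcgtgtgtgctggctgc
MXD1, chr2:69914859-69915158, plus strand: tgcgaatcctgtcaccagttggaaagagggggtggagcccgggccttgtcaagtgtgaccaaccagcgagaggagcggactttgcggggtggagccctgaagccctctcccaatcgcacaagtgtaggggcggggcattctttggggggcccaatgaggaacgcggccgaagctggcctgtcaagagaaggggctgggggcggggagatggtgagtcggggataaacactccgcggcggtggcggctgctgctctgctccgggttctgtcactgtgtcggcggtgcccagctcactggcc
The E-box began 193 bases before the start in MNT and 238 bases before it in MXD4, and CATGTG began 28 bases after the start in MYCL. The MXD1 window held neither set of letters, and these matches are a description of the windows and not of bound sites.

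RNA levels are given as FPKM (fragment counts divided by the length of the transcript and by sequencing depth), so levels of different genes can be set side by side per length. Depth, estimated from the worth of 1 fragment in genes with only 1 annotated transcript, lay between 21.2 and 24.8 M fragments per library, and 9303 to 10782 genes reached 1 FPKM. All 8 plasma cell markers reached 1 FPKM, and they summed to 1113 FPKM in H929 after sorting and 2088 before, and to 2975 FPKM in KMS28BM after sorting and 1975 before. JCHAIN, the joining chain of secreted antibodies, carried much of these sums, and the other 7 summed to 525 FPKM after sorting and 945 before in H929, and to 544 FPKM after sorting and 553 before in KMS28BM. None of the T cell, monocyte, endothelial and erythroid markers reached 1 FPKM; CD3D, CD8A, CDH5 and KDR were listed at the floor of 0.0001 FPKM everywhere. PDGFRB among 5 stromal markers and KRT8 among 4 epithelial markers reached 1 FPKM, both in H929 only. The part of these markers in the results was not tested, and in bulk RNA fewer cells of a type and less RNA per cell cannot be told apart.

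**Figure D1:**
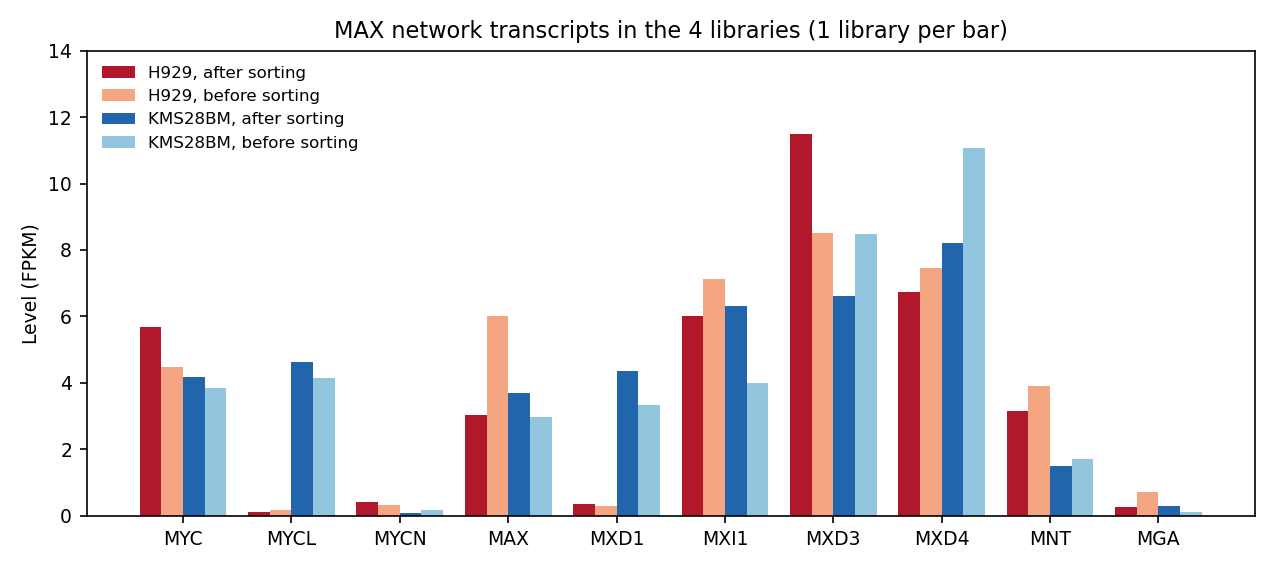
Levels of the 10 network genes in FPKM, with 1 bar for each of the 4 libraries, so the bars carry no error. MYCL and MXD1 stand above 3 FPKM in both KMS28BM libraries and below 0.4 FPKM in both H929 libraries, while MYC lies between 3.86 and 5.68 FPKM in all 4.

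The activators of the network came as MYC alone in H929 and as MYC and MYCL side by side in KMS28BM. MYC (ENSG00000136997) stood at 5.68 FPKM after sorting and 4.47 before in H929, and at 4.19 FPKM after sorting and 3.86 before in KMS28BM. The H929 libraries were above the KMS28BM libraries, by 1.36-fold after sorting and 1.16-fold before. MYC lay near the middle of the expressed genes, at percentiles 50.9 and 45.3 of those reaching 1 FPKM in H929 after and before sorting, and at 44.2 and 42.0 in KMS28BM.

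MYCL (ENSG00000116990), the family member first found in lung cancer, was at 0.102 FPKM after sorting and 0.173 before in H929, and at 4.63 FPKM after sorting and 4.14 before in KMS28BM. The H929 values rest on about 8 and 14 fragments, and the KMS28BM values on about 352 and 285. KMS28BM was higher by 45.3-fold after sorting and by 23.9-fold before, and on the scale of log2 of FPKM plus 1, H929 over KMS28BM, the differences were -2.35 and -2.13. The lines did not overlap. MYCL was the highest of the MYC family in both KMS28BM libraries, but its levels there overlapped those of MYC across the labels.

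MYCN (ENSG00000134323), the member known from neuroblastoma, stayed below 1 FPKM everywhere. It was listed at 0.413 FPKM after sorting and 0.322 before in H929, and at 0.0765 FPKM after sorting and 0.172 before in KMS28BM, on about 25, 21, 5 and 9 fragments in that order.

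As a share of the summed FPKM of the MYC family, MYC made up 91.7% after sorting and 90.0% before in H929, against 47.1% after sorting and 47.2% before in KMS28BM. MYCL made up 1.65% and 3.49% in the same H929 libraries, against 52.1% and 50.7% in the KMS28BM libraries. The family as a whole summed to 6.19 FPKM after sorting and 4.97 before in H929, and to 8.90 FPKM after sorting and 8.17 before in KMS28BM. KMS28BM thus had the higher summed level under both labels, with the smaller MYC level of the lines.

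MAX (ENSG00000125952), the shared partner, had the sorting labels furthest apart in H929 among the members that reached 1 FPKM. It stood at 3.04 FPKM after sorting and 6.02 before in H929, a fold of 0.506, and at 3.71 FPKM after sorting and 2.97 before in KMS28BM, a fold of 1.25. The H929 library labelled before sorting was the highest of the 4, and the other 3 lay between 2.97 and 3.71 FPKM. The H929 values correspond to about 219 and 471 fragments. On the scale of log2 of FPKM plus 1 the ratio of after over before was -0.80 in H929, with 10.3% of the expressed genes lower, and 0.25 in KMS28BM. The H929 ratio was also -0.80 with the trend in GC content and length removed.

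Among the antagonists, MXD1 (ENSG00000059728), a repressor induced as blood cells mature, resembled MYCL in reaching 1 FPKM in the KMS28BM libraries only. It stood at 0.358 FPKM after sorting and 0.303 before in H929, and at 4.35 FPKM after sorting and 3.32 before in KMS28BM. KMS28BM was higher by 12.2-fold and 10.96-fold, and the log2 differences of FPKM plus 1, H929 over KMS28BM, were -1.98 and -1.73. SNRNP27 shared 2.92% of the 50-base words of MXD1 transcripts and was at 4.99 and 5.16 FPKM in H929 and at 13.9 and 9.02 FPKM in KMS28BM, each after and before sorting.

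MNT (ENSG00000070444), which is made in most cells and balances MYC there, ran the other way. It stood at 3.15 FPKM after sorting and 3.92 before in H929, and at 1.48 FPKM after sorting and 1.71 before in KMS28BM. H929 was higher by 2.12-fold and 2.30-fold in FPKM, and by 0.74 and 0.86 on the scale of log2 of FPKM plus 1. Antisense to MNT, the transcript AC006435.1 covers 11.2% of its words, and whether counting used the strand is not stated in the labels.

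MXD3 and MXD4 were the most abundant antagonists in both lines, and MXI1 came next in level, though in KMS28BM its levels overlapped those of MXD1. MXD3 (ENSG00000213347), the member tied to S phase in mouse cells, was at 11.5 FPKM after sorting and 8.53 before in H929, and at 6.63 FPKM after sorting and 8.48 before in KMS28BM. The order of the sorting labels was thus opposite in the lines, with log2 ratios of FPKM plus 1 of 0.39 and -0.31. PRELID1, which covers 19.8% of the MXD3 words in antisense, was at 71.0 FPKM after sorting and 50.9 before in H929, and at 73.6 FPKM after sorting and 108 before in KMS28BM, in the same direction as MXD3 in each line. RAB24, which shares 16.4% of the words on the same strand, was at 13.3 and 17.2 FPKM in H929 after and before sorting. Reads of these neighbours and of MXD3 cannot be told apart where they overlap, so MXD3 is uncertain.

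MXD4 (ENSG00000123933), linked to resting and differentiated cells, was at 6.72 FPKM after sorting and 7.47 before in H929, and at 8.22 FPKM after sorting and 11.1 before in KMS28BM. It was lower after sorting in both lines, with log2 ratios of FPKM plus 1 of -0.13 and -0.39, of which the H929 ratio was 0.09 with a trimmed-mean scaling. MXI1 (ENSG00000119950), also called MXD2, was at 6.02 FPKM after sorting and 7.12 before in H929, and at 6.32 FPKM after sorting and 3.99 before in KMS28BM. The KMS28BM library labelled before sorting was the lowest of the 4.

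MGA (ENSG00000174197), the largest protein of the network, was below 1 FPKM in every library. It was listed at 0.260 FPKM after sorting and 0.702 before in H929, and at 0.298 FPKM after sorting and 0.101 before in KMS28BM. Its longest transcript has 14439 bases, so these levels still correspond to about 85, 251, 100 and 31 fragments in that order. The folds of after over before were 0.370 in H929 and 2.96 in KMS28BM, further from 1 than those of MAX but at levels under 1 FPKM. With the trend in GC content and length removed, the log2 ratio of FPKM plus 1 of MGA changed sign in both lines. It went from -0.43 to 0.11 in H929 and from 0.24 to -0.32 in KMS28BM. The highest and the lowest of the 4 libraries were both labelled before sorting.

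In order of level, the antagonists led each library. MXD3, uncertain for its overlaps, is part of this order and of the sums below. MXD4 also stood above MYC, MYCL and MYCN in every library. In H929 after sorting the order was MXD3, MXD4, MXI1, MYC, MNT and MAX, and before sorting it was MXD3, MXD4, MXI1, MAX, MYC and MNT, so that only MAX changed its place against the others. In KMS28BM after sorting the order was MXD4, MXD3, MXI1, MYCL, MXD1, MYC, MAX and MNT, and before sorting it was MXD4, MXD3, MYCL, MXI1, MYC, MXD1, MAX and MNT. In KMS28BM the levels of MYC, MYCL, MXD1 and MXI1 overlapped across the labels, so their order among themselves is not resolved. MXD proteins and MNT together summed to 27.7 FPKM after sorting and 27.3 before in H929, and to 27.0 FPKM after sorting and 28.6 before in KMS28BM. This sum was 4.48 and 5.51 times that of the MYC family in H929 after and before sorting, and 3.03 and 3.50 times in KMS28BM. The MYC family sum was 2.04 and 0.825 times MAX in H929 after and before sorting, and 2.40 and 2.75 times in KMS28BM. These are ratios of transcript levels and say nothing of protein.

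**Figure D2:**
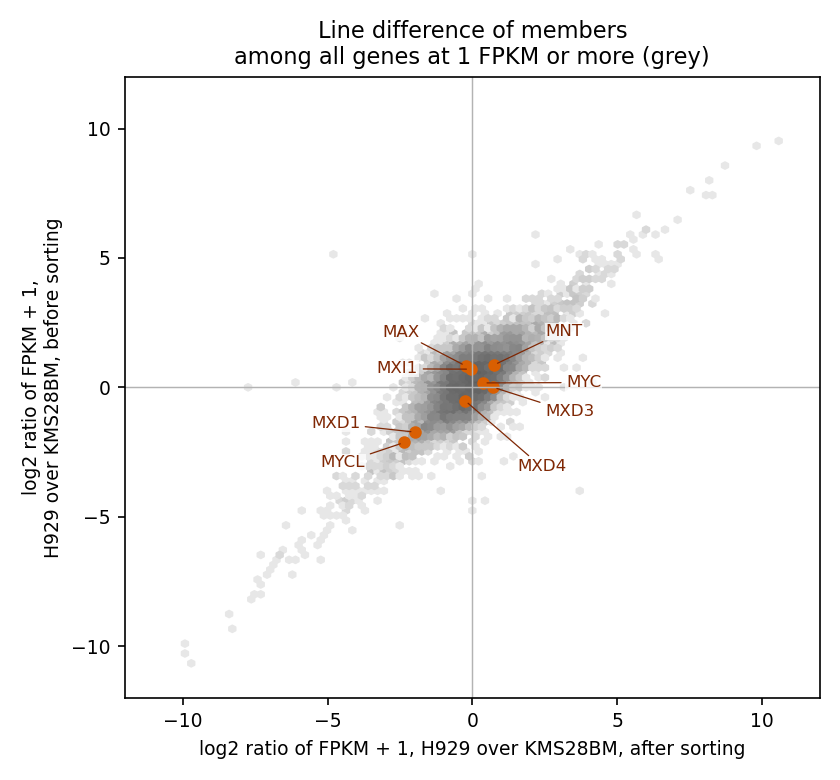
Each gene's log2 ratio of FPKM plus 1, H929 over KMS28BM, in the libraries labelled after sorting (horizontal axis) against those labelled before sorting (vertical axis), with all 12294 genes reaching 1 FPKM anywhere as grey bins, darker for more genes, and the 8 network genes at that level in orange. MYCL and MXD1 lie at the lower left, below -1 on both axes.

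The lines were compared without a test, as levels side by side, since each line stands in a table of its own and the labels do not say whether the tables were scaled together. Of the 8 network genes reaching 1 FPKM anywhere, 6 had H929 and KMS28BM levels that did not overlap, as did 65.8% of the 12294 genes at that level. By 2-fold under both labels, MYCL and MXD1 were lower in H929, 2 of 8, against 7.14% of all genes, and 0 of 8 were higher in H929, against 9.59%. With 0.1 FPKM as the added constant, MNT also passed, as 1 gene higher in H929. With 5 FPKM added, neither MYCL nor MXD1 did. MAX and MXI1 overlapped between the lines.

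MYCL stood apart from the genes beside it on the chromosome. TRIT1, MFSD2A, CAP1, PPT1, RLF and BMP8B lie around MYCL in the RefSeq annotation. Their log2 differences of FPKM plus 1, H929 over KMS28BM, ran from -1.51 for RLF to -0.19 for CAP1 after sorting, and from -1.74 for MFSD2A to 0.39 for RLF before sorting. MYCL, at -2.35 and -2.13, was lower than all 6 under both labels. Next to MYC, the long noncoding RNA PVT1 was at 0.238 FPKM after sorting and 0.316 before in H929, and at 0.852 FPKM after sorting and 0.881 before in KMS28BM.

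The genes whose profile over the 4 libraries lay nearest to that of MYC or MYCL were found by Euclidean distance in log2 of FPKM plus 1, each gene centred on its own mean, among 6013 protein-coding genes at 5 FPKM or more. Nearest to MYC were AMBRA1 at a distance of 0.0213, BRI3BP at 0.0241 and GPN1 at 0.0412, where the median over all candidates was 0.881. Near to MYCL were RGS16 at 0.0981 and CD48 at 0.136, where the median was 2.35. A profile of 4 values is short, and the measure describes these libraries only.

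**Figure D3:**
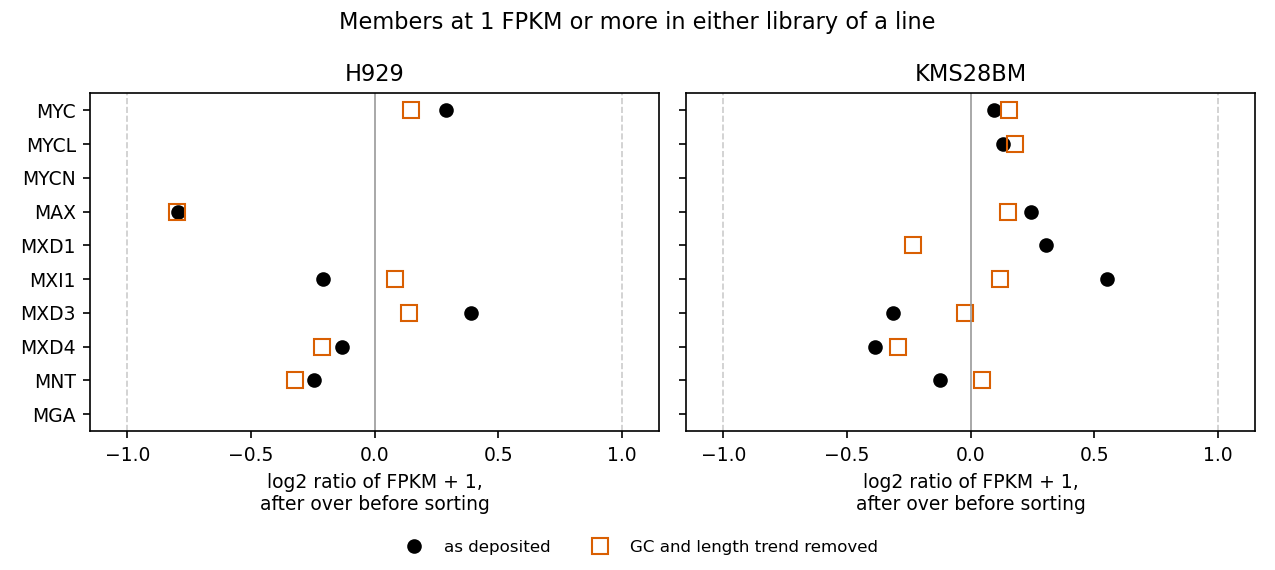
The log2 ratio of FPKM plus 1, after over before sorting, for network genes reaching 1 FPKM in at least 1 library of a line, as deposited (black circles) and with the trend in GC content and length removed (orange squares); dashed lines mark 2-fold. No circle or square reaches 2-fold in either line, and MAX in H929 is nearest at -0.80.

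The comparison of sorting labels asked which genes differed between cells labelled after and before passage over the chip. Here and below, 2-fold is counted on the scale of FPKM plus 1, which shrinks differences at low levels. In H929, 6 of the 10 network genes reached 1 FPKM in either library, and 0 of these 6 differed by 2-fold, where 6.76% of all 11083 genes measured did. Of the 6, MYC and MXD3 were higher, where 41.7% of all genes were, and MAX, MXD4, MXI1 and MNT lower, where 58.3% were, though MXD4 and MXI1 turned positive with a trimmed-mean scaling and MXI1 also with the GC and length trend removed. The median log2 ratio of the 6 was -0.17 beside -0.11 over all genes. In KMS28BM 8 reached 1 FPKM and 0 of these 8 differed by 2-fold, where 5.25% of all 10472 genes did. MYC, MYCL, MAX, MXD1 and MXI1 were higher, where 59.4% of all genes were, and MXD3, MXD4 and MNT lower, where 40.6% were, though MYC and MYCL turned negative with the trimmed-mean scaling, and MXD1 negative and MNT positive with the trend removed. The median of the 8 was 0.11 beside 0.12 over all genes. The members that passed are not all members: MYCN and MGA passed in neither line, and MYCL and MXD1 in KMS28BM only.

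MYC itself differed little by label. Its log2 ratio of FPKM plus 1 was 0.29 in H929 and 0.09 in KMS28BM, and MYCL had 0.13 in KMS28BM. Trimmed-mean scaling shifted the all-gene median to 0.10 in H929 and -0.06 in KMS28BM. The KMS28BM ratios of MYC and MYCL were then -0.09 and -0.06, and those of MXD4 and MXI1 in H929 were 0.09 and 0.01. Of the 6 genes measured in both lines, MAX, MXD3 and MXI1 had opposite signs in the lines, 3 of 6, against 69.1% of the 9261 genes measured in both. A change shared by the lines was fitted with limma over 12294 genes with the line as a term. It called 0.0488% of genes higher and 0.0651% lower, while 1.5% had an unadjusted p under 0.05. It called 0 of the 8 network genes in it, at unadjusted p-values from 0.507 to 0.958, with an adjusted p of 1 for each and changes from -0.28 (SE 0.41) for MAX to 0.19 (SE 0.40) for MYC. The spread behind this fit is how far the change differed between the 2 lines, moderated over all genes, so only large shared changes could pass.

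In the authors' deposited table for H929 0 of the 10 genes were marked significant, and the smallest q-value among them was 0.677, for MGA. In the authors' deposited table for KMS28BM MGA alone was marked, with a p-value of 0.0467 and a q-value of 0.998. These p-values compare 2 libraries and not 2 conditions. The authors' deposited table for H929 marked 954 genes, with 49 q-values under 0.05, and the authors' deposited table for KMS28BM marked 586, with 16.

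**Figure D4:**
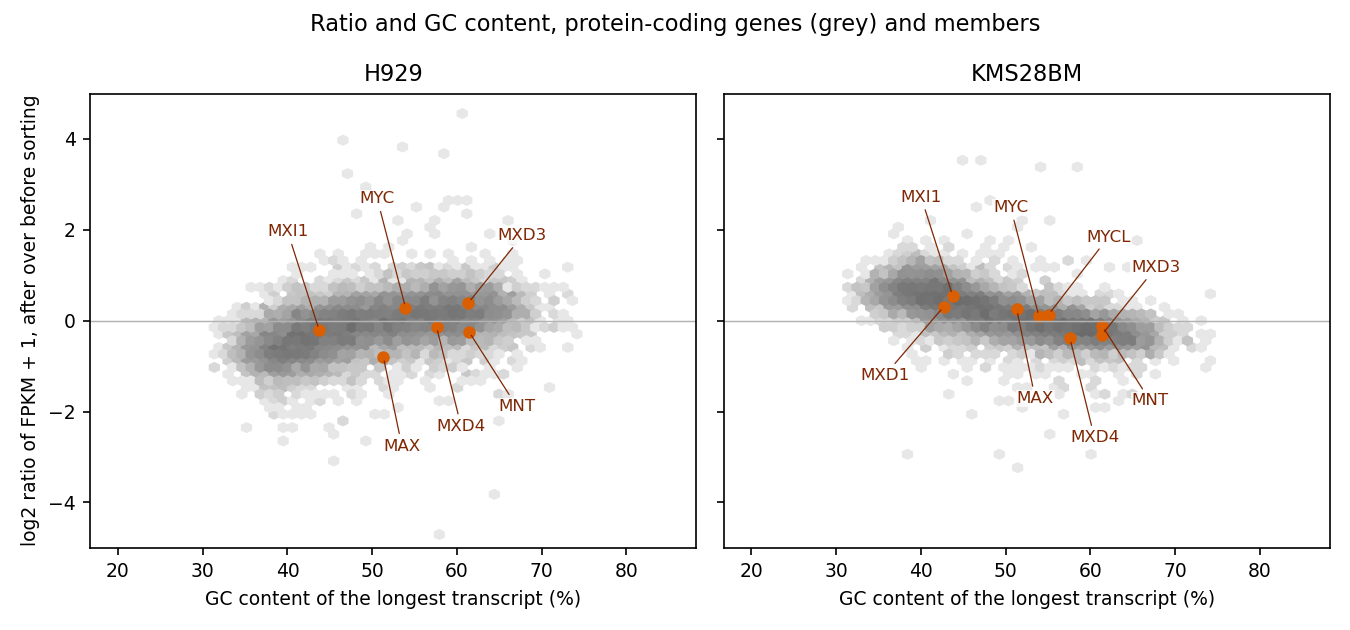
The log2 ratio of FPKM plus 1, after over before sorting, against the GC content of each gene's longest transcript in percent, for protein-coding genes reaching 1 FPKM in at least 1 library of a line (grey bins, darker for more genes) and the network genes among them (orange). The cloud slopes up in H929 and down in KMS28BM, and MAX in H929 lies below the cloud's centre at its GC content.

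Several of these ratios moved with the base composition of the transcripts. The ratio and the GC content had a Spearman rho of 0.54 across 9222 protein-coding genes in H929 and of -0.73 across 8890 in KMS28BM; genes of 1 library are not independent replicates. MXI1, at 43.7% GC, had ratios of -0.21 in H929 and 0.55 in KMS28BM, which were 0.08 and 0.12 with the trend in GC content and length removed. MXD3, at 61.3% GC, had 0.39 and -0.31, which were 0.14 and -0.02. MXD1, at 42.7% GC, had 0.31 in KMS28BM and -0.23 with the trend removed. For these 3 genes the labels' order therefore depended on the trend or shrank with its removal. MAX, at 51.3% GC, had a ratio of -0.80 in H929 both ways, and MXD4 stayed negative in both lines with the trend removed, at -0.21 and -0.29, though not in H929 with the trimmed-mean scaling.

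**Figure D5:**
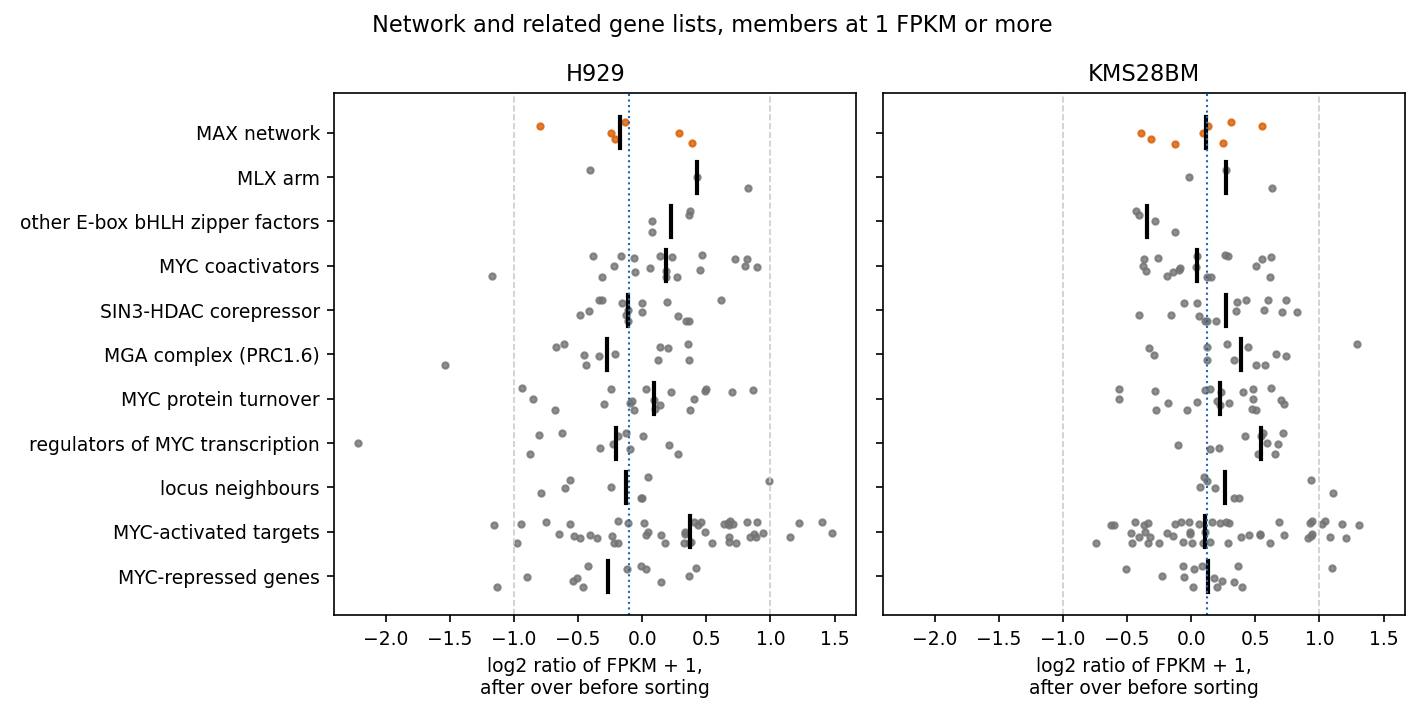
The log2 ratio of FPKM plus 1, after over before sorting, for members of the network (orange) and of 10 related gene lists (grey) that reach 1 FPKM in at least 1 library of a line; black bars are medians, the dotted line is the median of all genes, and dashed lines mark 2-fold. The network's points stay inside 2-fold in both lines, and the medians of the lists lie between -0.28 and 0.42 in H929 and between -0.34 and 0.54 in KMS28BM.

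In the parallel arm of the network MLX takes the place of MAX; MLX, MLXIP and TXNIP reached 1 FPKM, and MLXIPL and ARRDC4 lay below 0.05 FPKM in every library. MLX was at 28.1 FPKM after sorting and 20.7 before in H929, and at 19.4 FPKM after sorting and 19.7 before in KMS28BM, above MAX in every library. Its partner MLXIP (MondoA) was at 5.16 and 7.18 FPKM in H929 and at 4.91 and 3.91 FPKM in KMS28BM, after and before sorting. TXNIP, the glucose-responsive target of that pair, was at 37.0 FPKM after sorting and 20.4 before in H929, and at 109 FPKM after sorting and 70.5 before in KMS28BM. Of the 5 genes of this list 3 were measured in each line, and 0 passed 2-fold as deposited; TXNIP did in H929 with the trend removed, at 1.07. Among other factors that bind E-boxes, USF1, USF2, TFE3 and TFEB were measured, 4 of 6. All 4 were higher after sorting in H929, where 41.7% of all genes were, and all 4 lower in KMS28BM, where 40.6% were. Their medians were 0.22 and -0.34 as deposited and 0.05 and -0.17 with the GC and length trend removed.

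For the coregulators that MYC and its antagonists recruit, each line is read against its background of 2-fold differences, 6.76% of all genes in H929 and 5.25% in KMS28BM. Of 20 MYC coactivators, 19 were measured in H929 and 18 in KMS28BM; KAT2B, an acetyltransferase, was 2-fold lower in H929, at 1.54 FPKM after sorting and 4.72 before, and 0 were 2-fold apart in KMS28BM. Medians were 0.18 and 0.04, or 0.11 and 0.09 with the trend in GC content and length removed. Of 18 SIN3 and histone deacetylase corepressor genes, 15 and 16 were measured and 0 passed 2-fold in either line, with medians of -0.11 and 0.27. These medians were 0.28 and -0.02 with the trend removed. In the Polycomb complex built on MGA, 12 of 13 genes were measured in each line. E2F6, its E2F subunit, was lower in H929, at 5.39 FPKM after sorting and 17.5 before, and stood at 8.53 FPKM after sorting and 5.73 before in KMS28BM. CBX3, its heterochromatin protein, was higher in KMS28BM, at 24.9 FPKM after sorting and 9.59 before, and stood at 7.18 FPKM after sorting and 11.5 before in H929. The background for such calls was 1.59% higher and 5.17% lower in H929, and 4.13% higher and 1.12% lower in KMS28BM. E2F6 shares 11.6% of its words with other genes, mainly E2F6P1. With the trend removed E2F6 stayed at -1.27 in H929. KAT2B in H929 and CBX3 in KMS28BM were then inside 2-fold, at -0.83 and 0.79.

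Genes that act on MYC itself held 1 large difference. Among 13 regulators of MYC transcription, IRF4, which binds and drives MYC in myeloma, was at 55.1 FPKM after sorting and 260 before in H929, and at 53.4 FPKM after sorting and 35.04 before in KMS28BM. It was 1 of 12 measured genes past 2-fold in H929, where 6.76% of all genes passed, and 0 of 11 passed in KMS28BM, where 5.25% did. The list medians were -0.21 and 0.54, beside -0.11 and 0.12 over all genes. With the trend in GC content and length removed the list medians were -0.02 and 0.10. Of 21 genes of MYC protein turnover, 19 were measured in H929 and 21 in KMS28BM. On the scale of FPKM plus 1, 0 passed 2-fold in either, at the same backgrounds. FBXW7, the ubiquitin ligase subunit that recognises MYC, was at 1.74 FPKM after sorting and 3.94 before in H929, and at 2.34 FPKM after sorting and 1.40 before in KMS28BM. USP28, which reverses that step, was at 3.30 and 7.25 FPKM in H929 and at 3.08 and 1.66 FPKM in KMS28BM, after and before sorting. In H929 the log2 ratios of FPKM plus 1 were -0.85 for FBXW7 and -0.94 for USP28, though both genes were past 2-fold in plain FPKM. Of the genes beside MYC, MYCL and MYCN, 8 of 15 were measured in each line. RLF passed 2-fold in KMS28BM, at 3.92 FPKM after sorting and 1.28 before, as 1 of 8 against the background of 5.25%. It was inside 2-fold there with the trend removed, at 0.46.

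Of 50 genes that MYC is known to activate 48 were measured in H929. There 33 were higher and 15 lower after sorting, where 41.7% of all genes were higher and 58.3% lower, with a median log2 ratio of 0.37 beside -0.11 over all genes. APEX1, a DNA repair enzyme, was at 43.1 FPKM after sorting and 14.8 before. PPAN, a ribosome assembly factor, was at 19.1 FPKM after sorting and 6.59 before, but shares 54.5% of its words with other genes, mainly its read-through with P2RY11, and is uncertain. EIF4A1, a translation helicase, at 43.3 FPKM after sorting and 18.001 before, and CDK4, a cell cycle kinase, at 61.7 FPKM after sorting and 27.3 before, were named after their values were seen and also passed, which made 4 of 48 higher by 2-fold against a background of 1.59%. EIF4A1 shares 41.0% of its words and is uncertain. TSPAN31 covers 34.9% of the CDK4 words in antisense, so CDK4 is uncertain as well. With the trend in GC content and length removed CDK4 was at 0.99, just inside 2-fold. NOP58, a snoRNP protein, was the 1 gene lower by 2-fold, at 4.08 FPKM after sorting and 10.3 before. With the trend removed it was inside 2-fold, at -0.88.

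In KMS28BM 49 of the 50 activated genes were measured, 28 higher and 21 lower, where 59.4% of all genes were higher and 40.6% lower, with a median of 0.11 beside 0.12 over all genes. By 2-fold 6 were higher, against a background of 4.13%, and 0 lower. PAICS, a purine synthesis enzyme, was at 27.9 FPKM after sorting and 11.5 before, and NOP58 at 20.2 FPKM after sorting and 7.57 before, the opposite of its order in H929. With the trend in GC content and length removed 0 of the KMS28BM genes and 5 of the H929 genes were 2-fold higher. The medians were then 0.36 in H929 and 0.03 in KMS28BM, and 0.60 and -0.13 with the trimmed-mean scaling. MYC stood at log2 ratios of 0.29 and 0.09 in the same lines as deposited, and at 0.15 and 0.16 with the trend removed.

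Of 18 genes that MYC is known to repress, 12 were measured in H929 and 14 in KMS28BM. CDKN2B, an inhibitor of CDK4 and CDK6, was lower by 2-fold in H929, at 4.18 FPKM after sorting and 10.4 before. KLF6 was higher by 2-fold in KMS28BM, at 20.5 FPKM after sorting and 9.02 before. These were 1 of 12 lower, against a background of 5.17%, and 1 of 14 higher, against 4.13%. With the trend in GC content and length removed both were inside 2-fold, CDKN2B at -0.85 in H929 and KLF6 at 0.71 in KMS28BM. The medians as deposited were -0.27 and 0.13, beside -0.11 and 0.12 over all genes. The lines themselves lay far apart in 3 of these inhibitors of the cell cycle. CDKN2C was at 0.10 FPKM after sorting and 0.0857 before in H929, and at 139.9 FPKM after sorting and 146 before in KMS28BM. CDKN1A was at 2.08 FPKM after sorting and 1.39 before in H929, and at 104 FPKM after sorting and 122 before in KMS28BM. CDKN1B ran the other way, at 33.0 FPKM after sorting and 35.9 before in H929, and at 0.0334 FPKM after sorting and 0.0368 before in KMS28BM. Within a sorting label MYC differed between the lines by no more than 1.36-fold, while MYCL was higher in KMS28BM by 45.3-fold after sorting and 23.9-fold before. A link between the MYC family and these line differences was not tested.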

How the data were processed

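RNA of 4 libraries was measured, 1 per line and sorting label. Per the labels' protocols, Trizol RNA was selected on poly-T beads and sequenced in pairs on an Illumina NovaSeq. The deposited values are FPKM per gene, per the file headers; Bowtie 0.12.2, HISAT2 2.0 and StringTie 1.3.0 are named, without roles, per the submitters' processing notes, which also name the mouse build mm8, although the gene IDs are human. No source used here gives the human build, and gene coordinates are printed for RefSeq promoters only. Between 36942 and 39183 genes per library sit at a floor of 0.0001 FPKM. The deposited ratio column is the FPKM labelled after over that labelled before sorting, the deposited log2 column is its logarithm, and the deposited p-value and q-value columns are the authors' own, from a test not named in the sources used here.

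Ratios are log2 of FPKM plus 1, after over before sorting, for genes reaching 1 FPKM in at least 1 library of the pair, counted at 2-fold; no p-value is attached. A shared change was fitted with limma 3.58.1 in R 4.3.3 with line as a term. It used trended moderation and Benjamini-Hochberg adjustment over all genes, at 0.05. The fit was checked on simulated data with large planted changes and independent noise. That check says nothing of smaller changes or of a trend in GC content. GC content, length and 50-base words shared between genes came from GENCODE release 29, by gene ID; 99.4% of the 12294 expressed genes matched. Approximate fragments are FPKM times the longest transcript's length and the estimated depth, and cover counting only. The trend alternative removed cubic terms in GC content and log2 length, fitted on protein-coding genes per line; the trimmed mean left out 30% of ratios and 5% of levels at each end. Named besides the 10 network genes were, per list, the 2 highest and 2 lowest ratios in each line and the ends of the line difference, 68 genes, and the 3 profiles nearest to MYC and to MYCL, of which 1 is not reported here; values are given for the 11 of them that passed 2-fold in a line and for a choice of others, made after their values were seen. The members and lists were chosen with earlier results of these data known. Python 3.11.15, pandas 2.3.3, numpy 2.4.6, SciPy 1.17.1 and matplotlib 3.10.9 were used.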

Additional observations from a re-analysis of the deposited data

Results flagged for a closer look

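Ratios of after over before sorting had opposite signs in the lines and lay 1 or more apart on the log2 scale for MAX and for 25 of the other named genes, 26 of the 72 members and named genes measured in both lines. The difference was not tested, since each line has 1 library per label. Of all 9261 genes measured in both lines, 23.7% met the same condition; most named genes are the extremes of their lists, so nothing is read from the larger share among them. For MAX the H929 ratio minus the KMS28BM ratio was -1.04, or -0.95 with the trend in GC content and length removed.

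Among coactivators the same difference was 1.19 for RUVBL2, 1.25 for SMARCB1 and 1.09 for KAT2A. Among corepressors and the MGA complex it was -1.08 for HDAC2, -2.04 for E2F6, -1.25 for RYBP and -1.90 for CBX3. For genes of MYC turnover it was -1.56 for USP28, -1.33 for FBXW7, 1.06 for STUB1, -1.02 for CIP2A and -1.18 for PPP2R5A. Regulators of MYC gave -2.81 for IRF4, -1.40 for IKZF3 and -1.34 for PRDM1, and locus neighbours -1.90 for RLF and -1.497 for DDX1. Activated targets gave -2.46 for NOP58, -1.07 for CCND2, 1.63 for PHB, 1.004 for IPO4, -1.04 for HSPD1 and 1.47 for CDK4, and repressed genes -1.53 for CDKN2B and -1.64 for KLF6.

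With the trend in GC content and length removed, 7 of the 26 still lay 1 or more apart. They were E2F6 at -1.37, CBX3 at -1.04, IRF4 at -2.20, NOP58 at -1.75, SMARCB1 at 1.07, PHB at 1.34 and CDK4 at 1.24. CDK4 is uncertain for its overlap with TSPAN31. In antisense, DERL3 covers 16.7% of the SMARCB1 words and AC091180.3 covers 21.0% of the PHB words, so both genes are uncertain as well. E2F6 shares 11.6% of its words with other genes, mainly E2F6P1.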

How the results depend on the processing

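Ratios of the network genes reaching 1 FPKM in a line were recomputed under other settings. These were a pseudocount of 0.1 or 5, no filter, a 5 FPKM filter, 2 scalings, trend removal or protein-coding genes only. Of these ratios 106 of 106 stayed inside 2-fold. Signs did change among network genes reaching 1 FPKM in a line. With the trimmed-mean scaling these genes were MXD4 and MXI1 in H929 and MYC and MYCL in KMS28BM. With the trend removed they were MXI1 in H929 and MXD1 and MNT in KMS28BM. Genes under 1 FPKM in a line, such as MGA, were left out of both checks under every setting, also without a filter. Between lines, 2 members were 2-fold lower in H929 and 0 with a pseudocount of 5, and 0 were higher but 1 with 0.1. The shared fit called 6 genes higher and 8 lower; it called 2 and 2 with a pseudocount of 0.1, 3 and 3 with 5, 13 higher above 5 FPKM, 16 and 19 with the trimmed-mean scaling, 38 and 53 without a filter (where limma warned that most variances are 0), and 0 and 0 with no replicate block, that is without the line term, where 20 genes had an unadjusted p under 0.05. None of these fits called a network gene. Leaving out a line left the other line's ratio, from -0.80 to 0.55 over the members.

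Genes 2-fold higher and lower in H929 numbered 176 and 573. They were 327 and 1515 with a pseudocount of 0.1, 60 and 79 with 5, 365 and 296 with the trimmed-mean scaling, 285 and 259 with the trend removed, 820 and 2079 at 1.5-fold and 23 and 36 at 4-fold, and 309 were lower above 5 FPKM. In KMS28BM 433 and 117 became 1283 and 214 with a pseudocount of 0.1, 58 and 36 with 5, 268 and 66 above 5 FPKM, 1928 and 451 at 1.5-fold and 26 and 19 at 4-fold; 227 were higher with the trimmed-mean scaling and 116 with the trend removed, and 67 were lower among protein-coding genes. The cause was not tested. With 1 library per group, no spread between replicates is known, and members under 1 FPKM rest on few fragments, as low as about 5 for MYCN.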
